A study of Gallus gallus with 18 samples.

Results

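The comparison set messenger RNA of sperm against that of liver in adult breeder roosters on the control diet. It used 6 of the series' 18 libraries, 3 from sperm and 3 from liver, and every gene whose deposited FPKM (fragments scaled to transcript length and library size) was at least 1 in at least 3 of these 6 libraries. That left 10765 of the 23741 genes in the deposited table. A gene seen in 1 tissue only could pass through that tissue alone: 514 genes reached the minimum in all 3 sperm libraries and in no liver library, and 1677 did so in all 3 liver libraries and in no sperm library.

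The study raised Arbor Acres broiler breeder roosters on a corn and soybean diet with 0.25 mg of folic acid per kg of feed (control, FCON) or with 5 mg per kg (excess, FE), and followed the birds and their offspring. Both groups compared here are FCON roosters labelled 35 weeks old, and neither carries a transgene, deletion or drug. Poly(A) RNA was read in paired ends on an Illumina NovaSeq. The labels do not say how semen was collected or whether sperm were freed of other cells, nor whether a sperm and a liver library with the same number come from 1 bird. Replicates are separate samples as labelled, and the p-values rest on the spread between these few libraries, pooled over both tissues.

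Sperm condense their chromatin and stop transcribing as they mature, so the RNA they carry is largely what remains from the spermatid stage. Their body is a flagellum built on a microtubule core with dynein motors, an acrosome that opens the way into the egg, and a compact nucleus. The liver, by contrast, makes most plasma proteins, assembles lipoproteins, burns and stores fat, and in birds carries out much of the synthesis of uric acid and of fatty acids. It is also a main site of the folate and methionine cycles that supply methyl groups.

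The libraries labelled rooster liver FCON carried counts on the W chromosome, which in chickens belongs to hens. Genes there took 1015 to 1117 CPM (counts scaled to library size) in these 3 libraries and 9.74 to 22.4 in the 3 sperm libraries, against 0 to 2.07 in the rooster liver libraries of the FE diet. HINTW, a gene of the W chromosome (positions 1839400 to 1896965 in the deposited table), stood at 43.8, 43.2 and 42.4 TMM-scaled FPKM in the 3 liver libraries and at 0.0907, 0 and 0 in sperm. The label and these counts do not go together, so "liver" below means the libraries labelled rooster liver, and tissue cannot be told apart from whatever else separates those birds from the sperm donors. All levels below are FPKM divided by the library's TMM factor, a scaling that brings most genes of 2 libraries to the same level, and are called scaled FPKM. The factors were 0.441, 0.968 and 0.774 in the sperm libraries and 1.49, 1.43 and 1.42 in the liver libraries. The FPKM minimum was applied before this division, so in scaled FPKM it was stricter for sperm. That bears on every count of genes that reached the minimum in 1 tissue or library.

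Sperm libraries held 25249709, 33692497 and 28792941 estimated counts and liver libraries 40968729, 36114364 and 43130067, but far fewer genes shared the sperm counts. The 10 most counted genes took 75.6%, 48.0% and 55.2% of the 3 sperm libraries and 20.3% to 23.4% of the liver libraries. A single uncharacterized gene, LOC112530621, took 45.3%, 34.5% and 23.5% of the sperm counts, with Wilson 95% intervals of 45.24% to 45.28%, 34.51% to 34.54% and 23.47% to 23.50% that cover counting error only, and 60 to 80 counts in each liver library. The deposited table places it on chromosome Z (70409862 to 70415814), while the RefSeq gene table of GRCg7b lists it on chromosome 3, so its position and its share of reads from similar sequences are uncertain. Genes described as Gag proteins of endogenous retrovirus group K, remnants of ancient retroviral insertions, took a further 17.3%, 3.55% and 10.9% of sperm counts and under 0.008% of any liver library. Of the 7 such genes 6 were tested, 5 were higher in sperm and 1 lower. One of them, LOC107053122 on chromosome 3, stood at 30980, 3700 and 10250 scaled FPKM in sperm and at 0.141, 0.112 and 0.0707 in liver. It passed the FPKM minimum through sperm alone. Retroviral copies resemble one another, so how these reads were divided among them is uncertain.

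**Figure D1:**
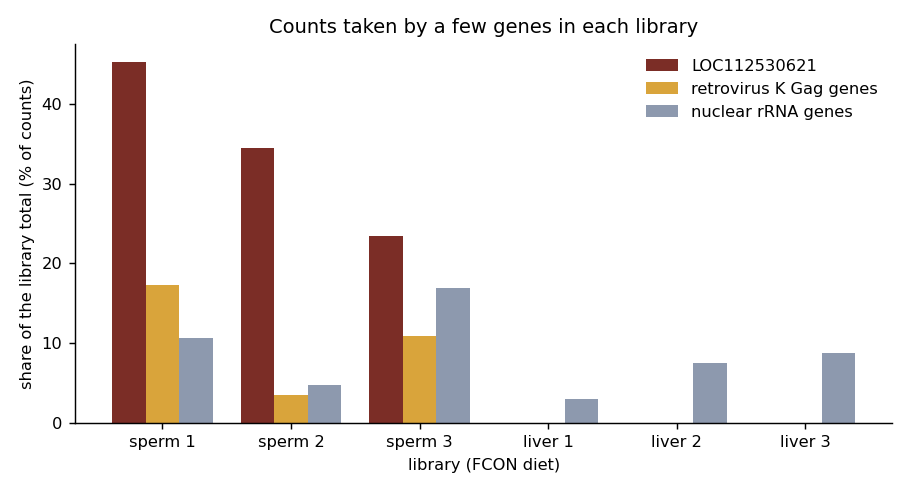
Share of each library's total count (%, from 0) taken by LOC112530621, by the genes described as retrovirus K Gag proteins and by nuclear ribosomal RNA genes, in the 3 sperm and the 3 liver libraries on the control diet. LOC112530621 takes 23.5% to 45.3% of each sperm library and no visible share of any liver library.

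Replicates were far less alike in sperm than in liver. The median over genes of the standard deviation of log2 CPM was 0.623 in sperm and 0.109 in liver. Transcripts of the flagellum and of spermatids were several times higher in sperm replicate 2 than in replicates 1 and 3, and this replicate also had the smallest share of ribosomal RNA and of retroviral Gag genes. At the FPKM minimum of 1 the sperm libraries showed 6859, 9999 and 8494 genes and the liver libraries 10306 to 10442.

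Sperm and liver differed across much of the transcriptome. At an adjusted p below 0.05 (edgeR's quasi-likelihood test, Benjamini-Hochberg), 5337 genes or 49.6% were called, 2593 of them (24.1% of those tested) higher in sperm and 2744 (25.5%) lower. Of these, 4904 (45.6% of those tested) differed at least 2-fold. In 66.7% of genes all 3 values of one tissue lay beyond all 3 of the other, 29.7% with sperm above and 37.1% with sperm below. The median log2 difference over all genes, sperm minus liver, was -0.08. These shares are the background against which each gene group below has to be read.

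The balance of the directions depends on the scaling. With library totals in place of TMM factors, the median over all genes moved to -1.06 and the calls became 1043 higher and 4037 lower. Limma on log2(FPKM + 1) gave 1044 higher and 5287 lower, with a median of -0.87. Differences are therefore best read against the median gene, and those of less than about 1 on the log2 scale depend on the scaling chosen.

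**Figure D2:**
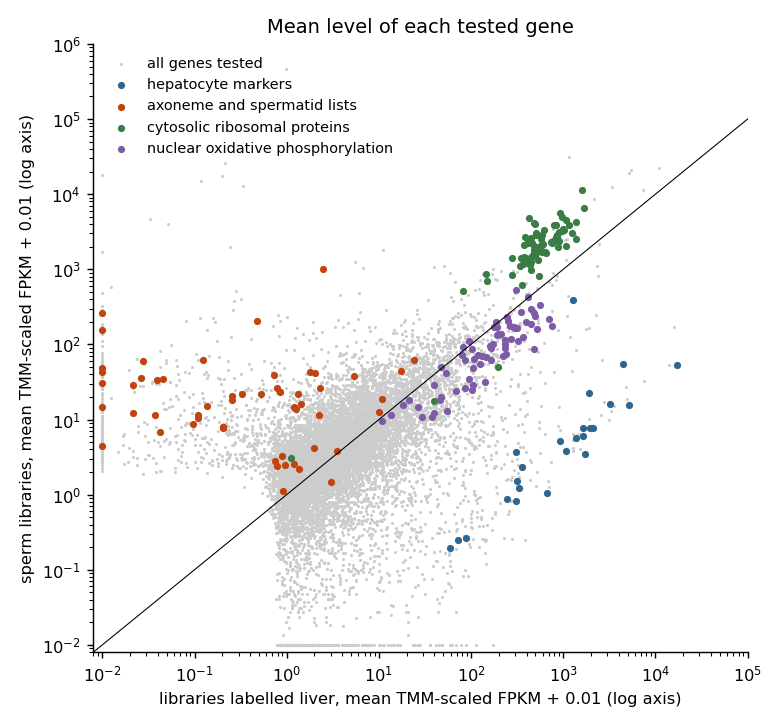
Mean scaled FPKM + 0.01 of each tested gene in the 3 liver libraries (x, log axis) and the 3 sperm libraries (y, log axis), with the diagonal of equal levels. Hepatocyte markers lie far below the diagonal, axoneme and spermatid genes far above it, ribosomal protein genes above it and nuclear genes of oxidative phosphorylation mostly below it.

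Genes of the flagellum were higher in sperm or not called. Of 24 dynein arm genes matched, 11 were tested, 8 rose and 0 fell, with a median log2 difference of 3.52. Of 60 genes of radial spokes, the central pair, tektins and associated proteins, 27 were tested, 23 rose and 0 fell, with a median of 5.33. Of those 27, 15 passed the FPKM minimum through sperm alone, as did 2 of the 11 dynein arm genes. Their deposited FPKM had to be higher in sperm. DNAI2, an intermediate chain of the outer dynein arm, stood at 5.78, 41.9 and 7.16 scaled FPKM in sperm and at 0.208, 0.210 and 0.318 in liver, a log2 difference of 6.16 (SE 0.983, adjusted p = 0.00325). TEKT3, a tektin that lines the doublet microtubules, stood at 7.32, 88.9 and 10.1 in sperm and at 0, 0 and 0.0495 in liver. CFAP77, a protein of the flagellar doublets, stood at 16.8, 113 and 16.3 in sperm and was at 0 in every liver library, at least 4133-fold higher (the bound assumes 3 counts over the whole liver group, as in every bound of this kind here). In each of the 3 genes every sperm library lies above every liver library, and sperm replicate 2 is the highest. TEKT1 missed the FPKM minimum, which was applied before TMM scaling. Its scaled FPKM was 1.86, 29.4 and 5.77 in sperm and 0.134, 0.28 and 0.184 in liver. The outer arm heavy chain DNAH5 had no count in any of the 6 libraries.

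These counts depended on the setting. At an FPKM minimum of 5 only 1 dynein arm gene was tested, with 0 calls, and 5 genes of the spoke and tektin list, of which 5 rose. With no FPKM filter 23 dynein arm genes were tested, of which 11 rose and 0 fell. All 60 of the spoke and tektin list were then tested, of which 46 rose and 0 fell. Without any one liver library 6 dynein arm genes rose, and 20 or 21 of the spoke and tektin list. By library totals the dynein arm list gave 5 rises and the spoke and tektin list 19, and limma on log2(FPKM + 1) gave 2 and 14, with 1 fall in the second. Without sperm replicate 2 dynein arm genes gave 8 rises and 1 fall among 11 and the spoke and tektin list 22 rises and 1 fall among 27, with medians of 2.36 and 3.98. The summed level of the spoke and tektin list was 230, 1553 and 326 scaled FPKM in the 3 sperm libraries and 51.0 to 54.5 in liver. That of the dynein arm list was 48.0, 445 and 79.5 in sperm and 14.6 to 16.4 in liver.

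Tubulins, the units of those microtubules, also rose: 10 of the 21 tested genes for tubulins and their modifying enzymes were higher, 0 lower, with a median of 1.39. TUBB4B, a beta tubulin of motile cilia, stood at 267, 2489 and 514 in sperm and at 53.4, 52.6 and 47.7 in liver, with a log2 difference of 4.40 (SE 0.912, adjusted p = 0.00862). TUBA8B, an alpha tubulin, stood at 90.8, 1264 and 171 in sperm and at 0.234, 0.342 and 0.233 in liver. TUBA8B was among the 2 genes of the list that passed the FPKM minimum through sperm alone, so its deposited FPKM had to be higher there. A further 2 passed through liver alone. Tubulin genes resemble one another in sequence, so some of their reads may have been assigned to the wrong member. By library totals only 5 tubulin genes rose and 1 fell.

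Intraflagellar transport, the train that carries parts into a growing cilium, moved less. Of 26 genes tested 9 rose and 2 fell, with a median of 1.27. IFT46, a core part of the train, stood at 30.9, 52.5 and 63.2 in sperm and at 5.39, 4.10 and 4.64 in liver. The number of rises ranged from 5 without liver replicate 3 to 16 without sperm replicate 1, and by library totals it was 1. The median turns to -0.08 in limma on log2(FPKM + 0.1), and the 2 falls were 0 without any one liver library.

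Spermatid and acrosome transcripts were also higher in sperm or not called. Of 29 genes matched 17 were tested, 13 rose and 0 fell, with a median log2 difference of 8.74. However, 10 of the 17 passed the minimum through sperm alone, so their deposited FPKM had to be higher in sperm. TPPP2, a tubulin-binding protein known from mouse sperm and located on chromosome Z (44133213 to 44134203), stood at 399, 2033 and 560 scaled FPKM in sperm and at 2.62, 1.92 and 2.88 in liver, a log2 difference of 8.63 (SE 0.879, adjusted p = 0.000785). PLCZ1, the sperm phospholipase that in mammals starts calcium waves in the egg, stood at 70.4, 306 and 92.0 in sperm and had no count in liver, at least 24950-fold higher. TSSK6L2, described as testis-specific kinase 6, stood at 71.3, 608 and 106 in sperm and had no count in liver, at least 21980-fold higher. KLHL10, in mice an adaptor for protein breakdown in spermatids, stood at 41.9, 504 and 67.9 against 0.656, 0.356 and 0.396. All 4 genes were highest in sperm replicate 2, and every sperm library lies above every liver library.

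The proteases and chaperones of this group were more uneven. ACR, the acrosomal protease acrosin, stood at 5.19, 155 and 27.3 in sperm and at 0.208, 0 and 0.134 in liver (log2 difference 8.98, SE 1.77, adjusted p = 0.00718). SPATA4, a testis gene, stood at 3.79, 57.4 and 4.92 against 1.37, 1.10 and 1.44, and its call (adjusted p = 0.0274) was lost without any one of the 3 liver libraries and by library totals. HSPA2, a testis heat shock protein in mammals, was above liver only in sperm replicates 2 and 3: it stood at 14.01, 141 and 32.1 against 22.9, 25.2 and 23.6 (adjusted p = 0.198), and the sign of its difference turned without sperm replicate 2 and in limma. Without sperm replicate 2 the list gave 15 rises and 0 falls, with a median of 7.07. Its summed level was 677, 4344 and 1011 scaled FPKM in sperm and 43.9 to 45.1 in liver.

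Histone variants stood out among single genes rather than as a list. Of 20 genes for histones and chromatin turnover 3 rose and 3 fell (6 rose without sperm replicate 1), with a median of 0.29 that turns to -0.61 by library totals and to -0.75 in limma on log2(FPKM + 1). Outside that list, H2AFB2, described as a sperm-like H2A, stood at 79.2, 1214 and 166 in sperm and had no count in liver, at least 52440-fold higher. H2AFB2 passed the FPKM minimum through sperm alone, so its deposited FPKM had to be higher there. H1F0, a linker histone of resting cells, was low in both tissues and lower in sperm, at 0.272, 0.196 and 0.685 against 2.24, 2.33 and 1.92. It was among the 2 genes of the list that passed through liver alone. Histone transcripts largely lack poly(A) tails, so this kind of library sees only the polyadenylated ones.

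Signalling proteins of the tail were divided. Of 14 genes tested 5 rose and 2 fell, with a median of 0.43 that turns to -0.49 by library totals and to -0.53 in limma on log2(FPKM + 1). CABYR, a calcium-binding protein of the fibrous sheath, stood at 11.7, 90.6 and 21.9 in sperm and at 0.161, 0.0140 and 0.0566 in liver. AKAP14, an anchor for protein kinase A, stood at 5.83, 82.4 and 21.8 and had no count in liver, at least 7142-fold higher. CABYR and AKAP14 were the 2 of the 14 that passed the FPKM minimum through sperm alone. The deposited FPKM of both had to be higher in sperm. CALM2, one of the calmodulin genes, stood at 125, 162 and 187 against 22.9, 24.3 and 20.8 (log2 difference 2.79, SE 0.236, adjusted p = 0.000504). PRKACA, a catalytic subunit of protein kinase A, went the other way, at 1.88, 0.9502 and 2.62 in sperm against 82.9, 81.2 and 80.7 in liver (log2 difference -5.50, SE 0.445, adjusted p = 0.000467).

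Genes of meiosis and early germ cells were mostly low in both tissues. Of 41 matched only 12 were tested, of which 2 rose and 3 fell, with a median of -0.11 that turns to 0.15 and 0.17 without sperm replicates 1 and 3. Without liver replicate 2 or 3 only 1 rose, and without sperm replicate 2 there were 5 falls. With no FPKM filter 40 were tested, of which 8 rose and 3 fell. Their median was then 0.83, against -0.17 over all genes in that fit. Of the 12, 4 passed the FPKM minimum through liver alone and 1 through sperm alone. CCNA1, a cyclin of the meiotic divisions in males, stood at 7.53, 66.7 and 15.3 in sperm and at 0, 0.0839 and 0 in liver. MEIOB, a meiotic DNA-binding protein, had no count in sperm and stood at 1.96, 2.17 and 2.23 in liver, at least 99.3-fold lower in sperm.

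**Figure D3:**
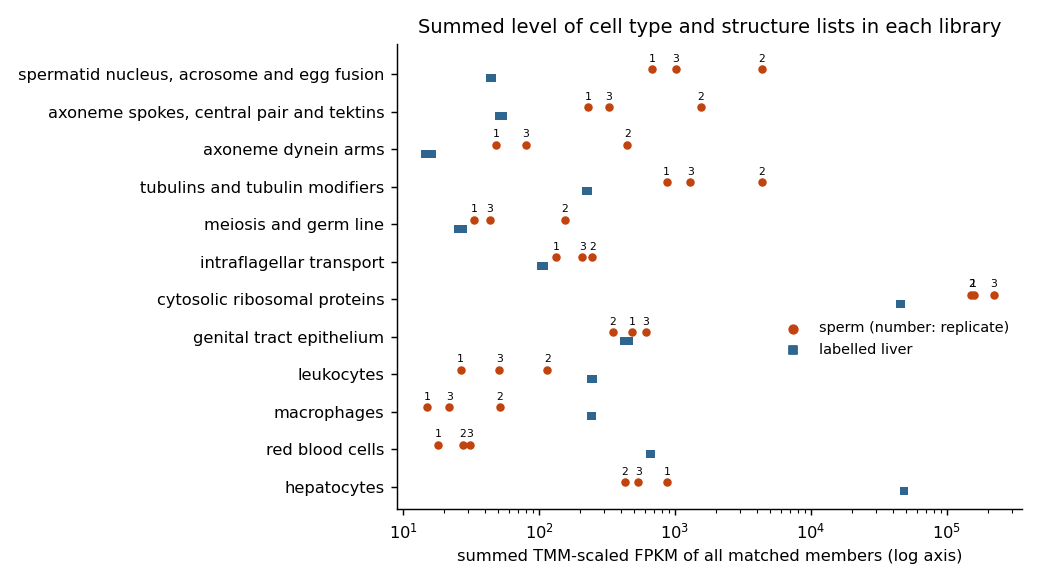
Summed scaled FPKM (log axis) of all matched members of 12 lists in each library. Sperm points carry their replicate number; replicate 2 is highest for spermatid, axoneme, tubulin and meiosis genes, while hepatocyte, red cell, macrophage and leukocyte sums are below liver in all 3 sperm libraries.

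Among the 12 largest rises of named genes, several belong to no sperm list. These 12 were picked for the size of their difference, which therefore had to be large. SPIK2, which the reference table names SPINK2, an inhibitor of acrosin-like proteases, stood at 956, 1671 and 3273 scaled FPKM in sperm and at 0.348, 0.356 and 0 in liver, a fitted fold difference of 8195 (adjusted p = 0.00108). SLC6A8, the creatine transporter, stood at 1543, 732 and 1500 against 5.68, 5.48 and 5.31 (log2 difference 7.83, SE 0.474, adjusted p = 0.000262). RPGRIP1L, a protein of the zone at the base of cilia, stood at 654, 225 and 343 against 0.228, 0.328 and 0.382. None of these 3 genes was highest in sperm replicate 2, as the flagellar genes were. DNAJB8, a chaperone cofactor, was highest there, at 47.5, 648 and 93.7 with no count in liver, at least 26660-fold higher. KIAA1328, a gene of chromosome Z, was highest in replicate 1, at 674, 137 and 55.1 against 0.208, 0.245 and 0.297, and TMEM158, a membrane protein, was highest in replicate 3, at 143, 139 and 398 against 0.107, 0.210 and 0. SPIK2, RPGRIP1L, DNAJB8, KIAA1328 and TMEM158 passed the FPKM minimum through sperm alone, so their deposited FPKM had to be higher there. SLC6A8 reached the minimum in liver as well.

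Avian beta-defensins, small antimicrobial peptides made by epithelia and white blood cells, were among the highest transcripts of the sperm libraries. AvBD10 (chromosome 3, 107427133 to 107429773) stood at 25050, 31380 and 36750 scaled FPKM in sperm and at 1160, 1168 and 1141 in liver, a log2 difference of 4.74 (SE 0.373, adjusted p = 0.000427). Its neighbour AvBD9 was high in both tissues, at 12260, 16680 and 37860 in sperm and 11110, 11100 and 10890 in liver, and was not called (adjusted p = 0.140), but it was called higher without sperm replicate 1. FTH1, the ferritin heavy chain that stores iron, stood at 6159, 14910 and 12730 against 7305, 7257 and 7232 and likewise was called higher without sperm replicate 1. The sign of both differences turned in limma, and that of FTH1 also by library totals.

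Epithelial markers did not move as a group. Of 11 genital tract epithelium markers tested 5 rose and 4 fell (2 fell without liver replicate 3), with a median of 0.85 that turns to -0.26 by library totals and to -0.25 in limma on log2(FPKM + 1), and the summed level was 483, 347 and 612 in sperm and 418 to 459 in liver. KRT19, a keratin of duct epithelia, stood at 85.4, 134 and 356 in sperm and at 5.13, 4.35 and 4.40 in liver (log2 difference 5.36, SE 0.631, adjusted p = 0.00123). ELF3, an epithelial transcription factor, stood at 87.5, 55.7 and 63.7 against 4.77, 5.09 and 5.46. PAX2, a factor of the kidney and genital ducts, stood at 25.2, 15.1 and 18.4 against 0, 0 and 0.00707. PAX2 was among the 2 of the 11 that passed the FPKM minimum through sperm alone, and 1 passed through liver alone. EPCAM, an adhesion protein of most epithelia, was lower, at 12.7, 8.91 and 12.4 against 70.1, 64.5 and 71.5. Whether epithelial cells or fragments contributed RNA to the sperm libraries was not tested.

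Markers of blood cells and of somatic cells of the testis were partly lower and partly higher in sperm. Of 10 general leukocyte markers tested 0 rose and 2 fell (6 without sperm replicate 2, 1 without sperm replicate 3 or liver replicate 1 or 3, 7 in limma on log2(FPKM + 1)), with sums of 26.5, 115 and 51.0 scaled FPKM in sperm and 243 to 251 in liver, and PTPRC, the pan-leukocyte antigen, stood at 0, 1.00 and 0.116 against 2.42, 2.49 and 2.51. Macrophage markers gave 0 rises and 8 falls among 11 (4 falls without any one liver library, 5 without sperm replicate 3). MRC1, the mannose receptor, had no count in sperm, at least 304-fold lower. Of the 11 macrophage markers 4 passed the FPKM minimum through liver alone, as did 3 of the 10 leukocyte markers. Their deposited FPKM had to be higher in liver, but this did not fix a call. PTPRC, among them, was not called (edgeR, adjusted p = 0.118). Of 5 heterophil markers tested 3 rose and 0 fell, with sums of 113, 180 and 44.2 in sperm and 10.6 to 11.6 in liver. S100A9, a calcium-binding protein of granulocytes, stood at 16.6, 62.1 and 10.9 against 0.737, 0.419 and 0.460, while 5 of the 12 matched, among them the granule peptides CAMP and AvBD2, which were also at most 0.290 in liver, had no count in sperm. Without sperm replicate 2 the same list gave 3 rises and 2 falls. The leukocyte, macrophage and heterophil sums were, like those of flagellar genes, highest in sperm replicate 2, and their part in the results of that library was not tested.

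T, B and NK cell markers gave 1 rise and 3 falls among 10 (1 fall without any one liver library), with sums of 96.1, 360 and 181 in sperm and 115 to 119 in liver. Thrombocyte markers gave 0 rises and 2 falls among 5. Smooth muscle markers gave 2 rises and 3 falls among 9 (0 rises by library totals, 1 rise without any one liver library, 5 falls without sperm replicate 1). Through liver alone passed 3 of the 10 T, B and NK cell markers, 3 of the 5 thrombocyte and 3 of the 9 smooth muscle markers. MYL9, a myosin light chain of smooth muscle, stood at 128, 60.9 and 91.6 in sperm and at 26.6, 8.18 and 24.4 in liver, a call lost by library totals. ACTA2 and DES, of the same list, were lower in sperm. ACTA2 stood at 0, 0.165 and 0.310 against 10.5, 11.8 and 10.4, and DES at 0.159, 0.651 and 0 against 10.3, 11.1 and 10.8. Red cell markers gave 0 rises and 6 falls among 8, of which 4 passed the FPKM minimum through liver alone, with the haemoglobin gene HBBA at 2.61, 0 and 3.67 in sperm and 291, 292 and 291 in liver. Endothelial and stellate cell markers gave 0 rises and 15 falls among 17. However, 13 of the 17 passed the minimum through liver alone, so their deposited FPKM had to be higher in liver. VWF, von Willebrand factor, had no count in sperm, at least 598-fold lower. Of 9 testicular somatic markers 3 rose and 1 fell (3 fell without sperm replicate 1, and 2 without replicate 2 or 3). Of the 9, 2 passed the FPKM minimum through sperm alone and 3 through liver alone. The steroidogenic factor NR5A1 stood at 6.44, 1.88 and 1.43 against no count in liver, and DHH, a signal of Sertoli cells, at 7.39, 5.17 and 2.30 against 0.0803, 0.126 and 0.177. INHBA, of the same list, was lower in sperm, at 0.544, 0.279 and 0.103 against 17.9, 11.5 and 18.5 (log2 difference -5.74, SE 0.655, edgeR, adjusted p = 0.00111). The summed level of that list was 60.05, 21.8 and 14.6 in sperm and 25.7 to 32.6 in liver, with overlap. In bulk samples fewer cells of a type and less RNA per cell cannot be told apart.

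**Figure D4:**
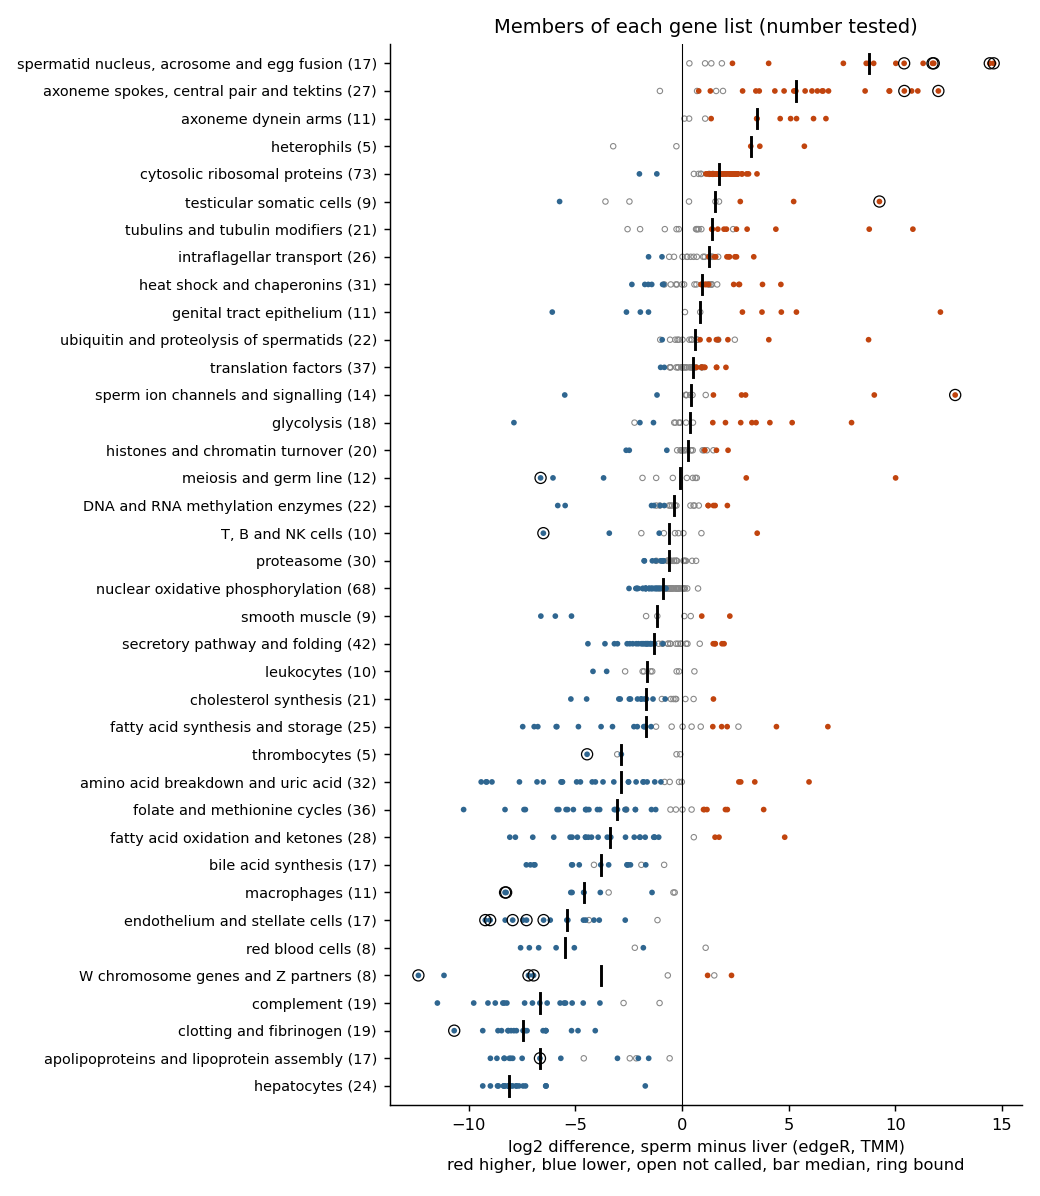
Log2 difference, sperm minus liver, of each tested member of 38 lists, ordered by the fitted median, with the number tested in brackets; the bar is the median with genes at 0 in 1 tissue set at their bound. Filled points were called higher (red) or lower (blue), open ones were not called, and a ring marks a gene at 0 in all libraries of 1 tissue, drawn at its bound. Spermatid and axoneme lists lie at the top and liver secretory lists at the bottom.

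Ribosomal protein transcripts rose as a body, as measured by TMM scaling. Of 73 cytosolic ribosomal protein genes tested 65 were higher in sperm and 2 lower, with a median log2 difference of 1.74, and 69 had every sperm library above every liver library. RPS29, a protein of the small subunit, stood at 3458, 4152 and 6914 scaled FPKM in sperm and at 427, 430 and 407 in liver (log2 difference 3.51, SE 0.352, adjusted p = 0.000753). RPLP1, a stalk protein, stood at 15560, 7575 and 10500 against 1635, 1608 and 1569. The paralog RPS27L was one of the 2 that fell, at 52.0, 42.1 and 55.0 against 197, 208 and 188. By library totals the median falls to 0.81 and the rises to 21, still set against a median over all genes of -1.06. Translation factors moved less, with 9 rises and 2 falls among 37 and a median of 0.52 that turns to -0.51 by library totals and to -0.54 in limma on log2(FPKM + 1). The rises were 3 to 4, with 0 falls, without any one liver library and 15 without sperm replicate 1. EEF2, the elongation factor that moves the ribosome on, stood at 1059, 447 and 754 against 180, 180 and 181.

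Energy pathways went in different directions. Glycolysis had 8 rises and 3 falls among 18. HK3, a hexokinase, stood at 31.8, 531 and 60.9 in sperm and at 1.11, 0.713 and 0.672 in liver, and PKM, the pyruvate kinase of most tissues outside liver, at 207, 183 and 255 against 6.17, 5.47 and 6.26. ALDOC, an aldolase, rose, at 224, 190 and 442 against 26.1, 25.9 and 24.8. LDHB, a lactate dehydrogenase subunit, stood at 224, 738 and 373 against 1126, 1112 and 1115, and its call (adjusted p = 0.0488) was lost without any one liver library and without sperm replicate 3. The list's median of 0.35 turns to -0.59 by library totals, to -0.81 in limma on log2(FPKM + 1) and to -0.09 without sperm replicate 3.

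Genes of respiration were lower or not called. Of 68 nuclear genes for oxidative phosphorylation 0 rose and 38 fell, with a median of -0.90, and the falls were 23 to 25 without any one liver library. ATP5F1B, the catalytic subunit of ATP synthase, stood at 141, 130 and 249 in sperm and at 756, 746 and 747 in liver (log2 difference -2.12, SE 0.329, adjusted p = 0.00295). COX6A1, of cytochrome oxidase, stood at 188, 219 and 241 against 709, 707 and 698. The 24 features of a short sequence whose last annotated base is 16784, taken as mitochondrial only from their tags and that length, were all lower in sperm, with a median of -6.42. They took 0.0179% to 0.0455% of sperm counts and 0.677% to 0.932% of liver counts. By library totals the median of the nuclear genes was -1.82, again below that of all genes.

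Protein folding and turnover were also divided. Secretory pathway genes gave 5 rises and 24 falls among 42 (0 and 29 by library totals), with a median of -1.33. PDIA3, a disulfide isomerase of the endoplasmic reticulum, stood at 31.1, 29.9 and 30.4 in sperm and 182, 183 and 176 in liver, and LMAN1, a cargo receptor, at 1.66, 1.41 and 1.12 against 28.3, 29.5 and 31.4. SEC61B, of the translocation channel, was higher, at 92.0, 149 and 242 against 46.0, 42.1 and 42.7, a call lost by library totals. Proteasome genes gave 0 rises and 10 falls among 30 (5 falls without any one liver library, 23 in limma on log2(FPKM + 1)), with PSMB7 at 51.3, 89.8 and 80.8 against 177, 172 and 170. Genes of ubiquitin and proteolysis in spermatids gave 7 rises and 1 fall among 22 (4 rises without any one liver library, 12 without sperm replicate 1), with a median of 0.59 that turns to -0.23 by library totals and to -0.55 in limma on log2(FPKM + 1). Heat shock and chaperonin genes gave 11 rises and 6 falls among 31, with a median of 0.92. They gave 6 and 3 without any one liver library, 4 and 6 by library totals, and 4 and 7 in limma on log2(FPKM + 1), where the median turns to -0.22. HSPB1, a small heat shock protein, stood at 58.9, 58.0 and 110 against 5.51, 5.59 and 5.35, and HSPD1, the mitochondrial chaperonin, at 11.1, 10.3 and 11.5 against 56.1, 56.6 and 54.3.

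Hepatocyte markers fell without exception among those tested. All 24 of the 24 tested were lower in sperm, with a median log2 difference of -8.11, and 6 of them passed the FPKM minimum through liver alone. ALB, serum albumin (chromosome 4, 50805767 to 50848889), stood at 42.2, 3.39 and 1.01 scaled FPKM in sperm and at 5169, 5106 and 5173 in liver, a log2 difference of -8.37 (SE 1.72, adjusted p = 0.0083). APOA1, the main protein of high density lipoprotein, stood at 125, 21.5 and 12.6 against 17070, 17010 and 16820. TTR, transthyretin, a carrier of thyroid hormone, stood at 4.13, 4.96 and 2.30 against 1124, 1035 and 1054. Sperm replicate 1 held more of ALB and APOA1 than replicates 2 and 3, and whether traces of other RNA account for this was not tested. Among the 24 the smallest fall was that of TF, transferrin, at 414, 319 and 441 in sperm against 1295, 1272 and 1295 in liver.

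Secreted liver proteins were lower too, but many passed the FPKM minimum through liver alone, so their deposited FPKM had to be higher there. They were 11 of 19 clotting genes, 12 of 19 complement genes and 7 of 17 lipoprotein genes. Clotting factors and fibrinogen gave 0 rises and 19 falls among 19, with a median of -7.45, and FGB, the fibrinogen beta chain, stood at 22.8, 14.2 and 31.3 against 1888, 1861 and 1898. Complement genes gave 0 rises and 17 falls among 19, with C3, the central component, at 9.57, 1.26 and 0.607 against 1279, 1287 and 1280. Lipoprotein genes gave 0 rises and 13 falls among 17, with a median of -7.50, which becomes -6.66 with genes that had no count in sperm set at their bound. LCAT, which esterifies plasma cholesterol, stood at 1.27, 0.269 and 0.0904 against 256, 254 and 253.

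Lipid metabolism fell with exceptions. Fatty acid oxidation and ketone genes gave 3 rises and 24 falls among 28 (1 rise by library totals), with a median of -3.36. PPARA, the receptor that switches on fat burning, stood at 0.272, 0.279 and 0.478 in sperm and at 5.45, 4.59 and 5.66 in liver. PPARA passed the FPKM minimum through liver alone. FABP1, a fatty acid carrier of the liver, stood at 3.13, 2.46 and 2.64 against 743, 744 and 740. ACSBG2, an acyl-CoA synthetase known from testis, rose, at 23.6, 227 and 37.3 against 3.29, 3.43 and 3.44. Bile acid genes gave 0 rises and 14 falls among 17, of which 7 passed through liver alone. CYP7A1, the rate-limiting enzyme, stood at 0, 0.909 and 0 against 42.8, 41.3 and 42.7. Its log2 difference was -6.90 here but 1.10 in the FE libraries, where it was not called (edgeR, adjusted p = 0.699). The difference between the 2 tissue contrasts of CYP7A1 was not called either (-8.03, SE 2.34, edgeR on 12 libraries, adjusted p = 0.0802). Cholesterol synthesis gave 1 rise and 13 falls among 21, with HMGCS1 at 2.92, 4.96 and 7.53 against 203, 186 and 181. That single rise was lost in 5 of the 6 fits without 1 library, and without sperm replicate 2 the list gave 3 rises.

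Fatty acid synthesis and storage was the most mixed of these lists, with 5 rises and 14 falls among 25 and a median of -1.70. The rises were 3 without liver replicate 1 or 2 and 2 by library totals. DGAT2, which makes triglycerides, was the largest rise, at 57.0, 24.5 and 59.4 scaled FPKM in sperm against 0.402, 0.370 and 0.438 in liver (log2 difference 6.83, SE 0.470, adjusted p = 0.000323). However, DGAT2 was the 1 gene of the list that passed the FPKM minimum through sperm alone, so its deposited FPKM had to be higher there. Through liver alone passed 4 of the 25. THRSP, a regulator of fat synthesis, stood at 4.40, 0.134 and 0.207 against 250, 253 and 253, and CIDEC, a protein of lipid droplets, at 0.544, 1.95 and 0.181 against 117, 117 and 122. FASN, fatty acid synthase, fell less, at 11.8, 4.29 and 7.34 against 21.9, 20.6 and 21.3 (log2 difference -1.45, SE 0.387, adjusted p = 0.0218), a call lost without any one liver library and without sperm replicate 3. SREBF1, a transcription factor that drives these genes, was higher, at 27.6, 7.48 and 21.5 against 3.89, 4.35 and 4.76, a call lost by library totals and without liver replicate 1 or 2.

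The folate and methionine cycles, the pathway the diet bears on, were much lower in sperm. Of 36 genes tested 6 rose and 25 fell, with a median log2 difference of -3.04. BHMT, which remethylates homocysteine with betaine (chromosome Z, 22435931 to 22451887), stood at 9.54, 2.01 and 0.814 scaled FPKM in sperm and at 1291, 1284 and 1270 in liver, a log2 difference of -8.30 (SE 1.12, adjusted p = 0.00184). SHMT1, the cytosolic enzyme that loads folate with a carbon unit from serine, stood at 2.90, 1.25 and 2.47 against 358, 353 and 359. MAT1A, the liver enzyme for S-adenosylmethionine, stood at 3.26, 1.78 and 0.698 against 324, 318 and 326. AHCY, which removes the product of methylation, stood at 24.7, 9.35 and 19.0 against 413, 403 and 399. Each of these genes has all liver libraries far above all sperm libraries.

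Among the rises was MTHFD2, the mitochondrial folate enzyme of growing cells, at 7.21, 12.97 and 4.87 in sperm against 0.750, 0.538 and 0.445 in liver. MTR, methionine synthase, which uses the methyl form of folate, was lower, at 0.227, 1.34 and 0.452 against 4.91, 4.29 and 3.32, a call lost without liver replicate 1 or sperm replicate 3. The number of rises in the list was 3 without liver replicate 2 and 1 by library totals.

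Purine and amino acid genes were mostly lower as well. Amino acid breakdown and uric acid synthesis gave 4 rises and 24 falls among 32, with a median of -2.86, and 7 of the 32 passed through liver alone. ATIC, which closes the purine ring with folate carbon and is counted in the folate list, stood at 82.0, 32.1 and 71.3 against 2694, 2635 and 2669, and PPAT, the first enzyme of that route, at 3.22, 2.44 and 2.87 against 141, 141 and 140. HPD, of tyrosine breakdown, stood at 10.8, 4.94 and 3.71 against 1278, 1273 and 1270. ARG2, the mitochondrial arginase, was among the rises, at 19.3, 47.1 and 62.0 against 0.904, 0.468 and 0.664.

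Enzymes that write, erase or read methyl marks on DNA and RNA gave 5 rises and 6 falls among 22, with a median of -0.40. N6AMT1, a methyltransferase that has been discussed as a writer of adenine methylation in DNA (chromosome 1, 105292628 to 105295722), was steady among sperm libraries at 29.7, 24.4 and 27.7 scaled FPKM and stood at 5.79, 6.47 and 6.35 in liver, a log2 difference of 2.12 (SE 0.215, adjusted p = 0.000778). ALKBH1, discussed as an eraser of that mark, stood at 1.38, 2.94 and 2.35 against 2.74, 3.81 and 3.30 and was not called (adjusted p = 0.241). DNMT1, which copies cytosine methylation at replication, stood at 5.53, 2.27 and 2.30 against 8.65, 8.34 and 8.12 (log2 difference -1.32, SE 0.403, adjusted p = 0.0351), and DNMT3A, which sets it anew, at 10.2, 6.28 and 7.26 against 14.4, 14.7 and 12.9 (log2 difference -0.83, SE 0.248, adjusted p = 0.0318). The DNMT1 and DNMT3A calls were both lost without any one liver library and without sperm replicate 3, and that of DNMT1 also without sperm replicate 2. METTL4 and TET2 missed the FPKM minimum. Without 1 library the list's rises ranged from 3 to 5 and its falls from 2 to 8. By library totals it gave 1 rise and 8 falls, and in limma on log2(FPKM + 1) 1 and 13.

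**Figure D5:**
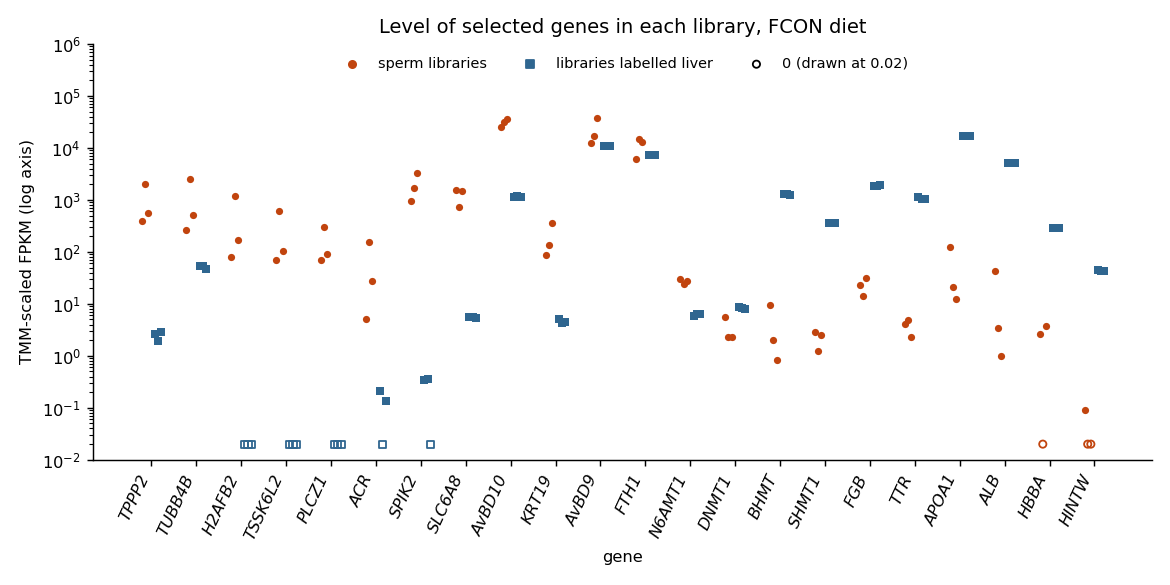
Scaled FPKM (log axis) of 22 genes in each of the 3 sperm libraries (circles) and the 3 liver libraries (squares), with values of 0 drawn as open symbols at 0.02. Sperm circles spread widely for flagellar and spermatid genes such as H2AFB2 (79.2 to 1214) and lie close together for N6AMT1 (24.4 to 29.7), while liver squares nearly coincide.

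Calls were also counted by chromosome. Of 10186 genes tested on the autosomes 2452 rose and 2581 fell, with a median of -0.08. Of 435 on chromosome Z 124 rose and 92 fell, with a median of 0.13. Of 20 tested on W 18 were lower in sperm and 1 higher, read against liver libraries that carry W counts. Of 8 tested W genes and their Z partners 2 rose and 4 fell, with a median of -5.75, or -3.82 with genes that had no count in sperm at their bound. Of these 8, 4 passed the FPKM minimum through liver alone, so their deposited FPKM had to be higher in liver. Roosters carry 2 Z chromosomes and hens 1, so the Z values cannot be told apart from that same doubt about the liver birds.

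The same contrast in the FE libraries shares no library with the one above. These roosters had the 5 mg diet, were labelled 35 weeks old (36 for sperm replicate 3) and likewise gave 3 libraries per tissue. There 4990 genes or 46.4% were called, 2740 higher (25.5%) and 2250 lower (20.9%). Of the 2593 genes higher in FCON sperm 1838 were also called higher under FE, 70.9% of the first list and 67.1% of the second. Of the 2744 lower genes 1629 were also called lower, 59.4% and 72.4% of the 2 lists. Opposite calls numbered 19 and 29. The FE livers held 32.8% to 60.5% of counts in nuclear ribosomal RNA, against 3.02% to 8.75% in the FCON livers, and the 2 sets differ in W counts as given above. The FE sperm libraries held 5.85%, 50.2% and 2.35% of counts in nuclear ribosomal RNA, and the FCON sperm libraries 10.6%, 4.71% and 16.9%.

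Few genes were called different between diets in how far sperm stood from liver, which does not show that few differed. The difference of the 2 tissue contrasts was called for 364 genes or 3.38%, 184 positive (1.71%) and 180 negative (1.67%), and 2209 had an unadjusted p below 0.05. The number fell to 84 to 86 without any one FCON liver library and rose to 1202 without sperm FCON replicate 2 and to 815 without sperm FE replicate 3. Diet, ribosomal RNA content and W counts all separate the 2 sets of livers and cannot be told apart here.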

How the data were processed

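Liver and sperm RNA of 35-week-old FCON roosters was compared in 3 libraries each. The deposited table holds whole-number estimated counts per gene and FPKM, computed by the authors relative to transcript length and library size; the submitters' processing notes name cutadapt, HISAT2 and StringTie, with versions, genome build and strand setting not given in the sources used here. FPKM as deposited served for the filter (at least 1 in at least 3 of 6 libraries) and, divided by TMM factors, for levels. Counts were tested with edgeR 4.0.16 (quasi-likelihood, TMM, R 4.3.3), 1 mean per group, Benjamini-Hochberg over all 10765 genes, called below 0.05. The FE libraries entered a second fit of 12 libraries for the difference of contrasts. Without strand, overlapping genes cannot be told apart. A GRCg7b gene table gave symbols and chromosome names for 19402 gene IDs, and coordinates are those of the deposited table. The script was tested on simulated data. Wilson intervals and floors of 3 counts cover counting error only.

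Members and the 39 gene lists were chosen with earlier results of these data known. Lists were matched by name, 21 of their 993 genes through the reference symbol; mitochondrially encoded genes matched none. Genes named are the 12 called genes in each direction with the greatest mean difference on the log2(FPKM + 1) scale, given a symbol, groups that do not overlap and at least 5 FPKM, the 8 highest in each tissue, up to 4 per list by level, and a panel of sperm, liver and methylation genes. Outside this rule, chosen after their values were seen, are LOC112530621, LOC107053122, KLHL10, TEKT3, DNAI2, AKAP14, PKM, PAX2, PTPRC, MRC1, VWF, NR5A1, HSPB1, LMAN1, TF, LCAT, CYP7A1, MAT1A, AHCY, PPAT and FABP1. The group of 7 retrovirus K Gag genes was likewise taken up after its values were seen. Same-numbered sperm and liver libraries did not deviate together, which does not settle whether they come from 1 bird. Replicates of both tissues differed by more than counting noise. The median squared deviation between 2 replicates was 67.8 to 113.5 times that of counting noise in sperm and 6.78 to 7.08 times in liver. Alternatives were other scalings, DESeq2 1.42.0, limma 3.58.1 on log2 FPKM with pseudocounts of 1 and 0.1, other filters, a replicate block and fits without 1 library. Some genes that this rule names are not reported here.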

Additional observations from a re-analysis of the deposited data

Results flagged for a closer look

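For 8 genes named here the distance between sperm and liver differed between the FCON and FE libraries, by the test of the difference itself in a fit of 12 libraries (edgeR, adjusted p below 0.05; difference given as FCON minus FE in log2). Levels in this paragraph are scaled FPKM over those 12 libraries, mean ± SD, n = 3. CALM2 gave a difference of 2.96 (adjusted p = 0.000903), with liver at 17.6 ± 1.31 under FCON and 98.9 ± 8.91 under FE while sperm stood at 130 ± 24.4 and 94.5 ± 16.3. LDHB gave -2.62 (adjusted p = 0.0195), with liver at 870 ± 5.99 and 182 ± 9.53, and its tissue difference changed sign, from -1.34 to 1.41. FABP1 gave -9.68 (adjusted p = 0.00036), with liver at 578 ± 0.328 and 3.00 ± 2.74 and sperm at 2.26 ± 0.314 and 9.73 ± 5.32.

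HSPB1 gave 2.75 (adjusted p = 0.0195), with liver at 4.27 ± 0.0838 and 30.1 ± 5.97. COX6A1 gave -1.24 (adjusted p = 0.0363), with liver at 548 ± 3.13 and 324 ± 30.6. PDIA3 gave -1.33 (adjusted p = 0.0379), with liver at 140 ± 2.71 and 53.0 ± 6.50. TTR gave -2.25 (adjusted p = 0.0374), with liver at 834 ± 35.9 and 382 ± 141. HINTW gave -15.5 (adjusted p = 0.0361), a fitted value that depends on the prior count because all FE livers were at 0, with FCON liver at 33.6 ± 0.496. In each of the 8 genes the FCON and FE livers stand apart, and those livers also differ in ribosomal RNA (3.02% to 8.75% against 32.8% to 60.5% of counts) and in W counts. Diet, these values and the birds cannot be told apart.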

How the results depend on the processing

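Sperm replicates vary far more than liver replicates, so low transcripts of sperm are the least certain, and small differences depend on the scaling. Against 2593 higher and 2744 lower genes, library totals gave 1043 higher, limma on log2(FPKM + 1) 1044 higher and 5287 lower, limma on log2(FPKM + 0.1) 1014 and 4847, and an FPKM minimum of 5 gave 3420 calls, 1591 and 1829, among fewer genes. RLE, upper-quartile scaling, DESeq2 and no filter kept each count within 1.5 times. Without 1 liver library the calls were 3656 to 3685, and without 1 sperm library 5255 to 6329. Over all fits without 1 library the higher ranged from 1719 (without liver replicate 3, and 1725 without replicate 1) to 3010. The lower ranged from 1937 to 3319.

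The difference between diets, 364 genes, became 1199 (42 positive, 1157 negative) in limma on log2(FPKM + 1). Without 1 library it ranged from 84 to 1202, with 43 to 460 positive and 41 to 752 negative; it was 182 without sperm FE replicate 1 and 228, 144 and 125 without FE livers 1, 2 and 3. The cause was not tested.

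Same-numbered sperm and liver libraries had correlations of -0.0331, -0.0117 and -0.0152 between their deviations from the group means. Pairs with unlike numbers gave -0.0214 to 0.0319. Liver libraries deviate little (median SD of log2 CPM 0.109 against 0.623 in sperm), so these values cannot show whether the numbers pair birds. A replicate block gave 1982 higher and 2298 lower genes, and 53 (27 positive, 26 negative) for the difference between diets.

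Among the genes discussed, no called difference changed direction under these settings. Of the differences that were not called, that of HSPA2 (1.37) turned to -0.03 without sperm replicate 2 and to -0.27 in limma on log2(FPKM + 1), that of AvBD9 (1.00) to -0.22 in that limma fit, and that of FTH1 (0.62) to -0.53 there and to -0.24 by library totals. DNMT1 and DNMT3A lost their calls under RLE scaling, and TUBB4B in limma with either pseudocount.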
